A study of Mus musculus with 12 samples.

Results

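The 10 genes described here make up the MHC class I presentation pathway: the heavy chains H2-K1 and H2-D1, the light chain B2m, the peptide transporter subunits Tap1 and Tap2, the loading factor Tapbp (tapasin), the immunoproteasome subunits Psmb8, Psmb9 and Psmb10, and the transactivator Nlrc5. They were chosen by gene symbol, and all 10 were found among the 25860 genes of the RNA-seq table. In the same study's ATAC-seq list of differing peaks, every peak annotated to one of these symbols was taken. Of the genes in the RNA-seq table, 14459 averaged 10 normalized counts or more across the 6 libraries and were tested, and all 10 members were among them.

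MHC class I molecules show short peptides from a cell's own proteins to CD8 T cells. Proteasomes cut those proteins, the TAP transporter moves the peptides into the endoplasmic reticulum, tapasin bridges the transporter to empty class I molecules, and a loaded heavy chain with its light chain travels to the cell surface. Interferons raise many of these genes in most tissues, and lymphocytes hold high class I levels at rest, with NLRC5 acting at the class I promoters through a shared set of promoter elements.

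The study profiled progenitor CD8+ T cells from the pancreatic lymph node of mice prone to autoimmune diabetes, to see which genes and open chromatin regions depend on the histone demethylase UTX (gene Kdm6a). RNA-seq and ATAC-seq each have 3 libraries per genotype. The control group, WT, is the NOD.NY8.3 line, in which a transgenic receptor directs T cells to the pancreatic antigen IGRP; it is Cre-negative and keeps UTX. The other group, UTXTCD.NY8.3 (UTXTCD below), carries the same receptor on the NOD background together with floxed UTX alleles and Cre under the Lck promoter, which acts from early T cell development on, so the deletion is not limited to the sorted cells. The floxed and Cre alleles were backcrossed from C57BL/6 to NOD, only females were used, and neither group was treated. The age of these mice is not stated in the sources used here.

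Kdm6a itself (chrX:18160862-18279936, GRCm38) had normalized counts of 28365, 28949 and 29172 in the WT libraries and 24158, 24792 and 24579 in the UTXTCD libraries. Every UTXTCD library was below every WT library, although the difference was small (log2 fold change -0.23, SE 0.04, adjusted p = 0.00114). A count per gene covers all exons and cannot show whether the floxed ones, which the sources here do not name, were lost. The normalized counts are read counts per gene that the authors divided by 1 size factor per library. The log2 fold change is UTXTCD over WT on log2(normalized count + 1), which understates differences of genes with few counts, and the adjusted p comes from limma, with the Benjamini-Hochberg adjustment over all 14459 genes tested. For ATAC-seq the methods give 3 mice and as many biological replicates per genotype, and a figure legend gives 3 per group for both assays. Each p is measured against the spread between the libraries.

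Counted reads totalled 146456724, 144503203 and 193568919 for the WT libraries against 61512402, 175462433 and 187275082 for UTXTCD, whose replicate 1 was the shallowest. In that library 3 reads, the most that a count of 0 allows, correspond to a normalized count of 6.75, far below every member, and this floor covers counting error only. The 10 members together took 0.536%, 0.533% and 0.490% of the counted reads in the WT libraries and 0.583%, 0.533% and 0.555% in the UTXTCD libraries, so that the groups overlapped in their total.

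Markers of CD8 T cells were abundant. Cd8a, the CD8 alpha chain, had normalized counts of 272448, 270012 and 274004 in the WT libraries and 311527, 312999.9 and 270975 in the UTXTCD libraries. Cd3e, a chain of the T cell receptor complex, had 145172, 139763 and 133010.4 in the WT libraries and 165614, 151798 and 151586 in the UTXTCD libraries (log2 fold change 0.17, SE 0.06, adjusted p = 0.0414); its adjusted p rose above 0.05 without WT replicate 1, 2 or 3 (0.0547, 0.0664 and 0.139) and without UTXTCD replicate 1 or 2 (0.155 and 0.0695). Cd8b1, the CD8 beta chain, had 148808, 138851 and 136749 in the WT libraries and 121688, 111349 and 95739.8 in the UTXTCD libraries (log2 fold change -0.37, SE 0.08, adjusted p = 0.00634), and Cd3d had 69275, 63369 and 72913 in the WT libraries and 55510.5, 58879 and 54935 in the UTXTCD libraries (log2 fold change -0.28, SE 0.06, adjusted p = 0.00485). Both were lower in every UTXTCD library. Cd4 was far below Cd8a, with 90.1, 104 and 83.1 in the WT libraries and 58.5, 68.1 and 41.3 in the UTXTCD libraries. By the labels, cells were gated as Ly108+CXCR6-, while the methods of the study describe progenitors as Ly108+CD39-. Slamf6, which encodes Ly108, had 27732, 34096 and 23305 in the WT libraries and 36665, 30979.8 and 35425 in the UTXTCD libraries, so the groups overlapped. Cxcr6 RNA was present in every library, at 12757, 9619 and 13724 in the WT libraries and 5286, 5994 and 5695 in the UTXTCD libraries. It was called lower with no overlap (log2 fold change -1.07, SE 0.12, adjusted p = 1.31e-04), so the sorted cells of the genotypes differed in the RNA of a gate marker. Entpd1, which encodes CD39, was low, at 10.9, 29.6 and 11.4 in the WT libraries and 4.50, 12.8 and 4.42 in the UTXTCD libraries. In all, 2 of the 8 CD8 T cell markers were higher and 2 lower at an adjusted p under 0.05, beside 20.2% and 20.5% of all tested genes. Over the 15 alternatives 0 to 3 of them were higher and always 2 lower. Their median log2 fold change was 0.06.

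Of the 10 members, 2 differed at an adjusted p under 0.05 (limma), Tap1 and Nlrc5, while 40.7% of all tested genes did. Both were higher in UTXTCD, where 20.2% of tested genes were higher and 20.5% lower at that threshold. Over the 15 alternatives 2 to 4 members were higher at that threshold and 0 lower, 4 being higher with the libraries scaled to the same sum. With a log2 fold limit of 0.5 added, the rule for calling a gene, 0 members were called, against 17.6% of tested genes (10.5% called higher and 7.05% called lower). No member was called by edgeR or DESeq2 on the recovered reads, and 3 members, Tap1, Tap2 and Nlrc5, had an unadjusted limma p under 0.05, each with a fold under the limit. The libraries of the groups did not overlap for 5 members, against 51.9% of tested genes: UTXTCD was above WT for Tap1, Tap2, Psmb9 and Nlrc5 (25.8% of tested genes) and below it for Psmb8 (26.1%). The members' median log2 fold change was 0.05, from -0.08 to 0.43, beside a median of -0.00018 over all tested genes. With the authors' scaling and limma, the share of members that differed was thus no larger than that of genes in general.

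**Figure D1:**
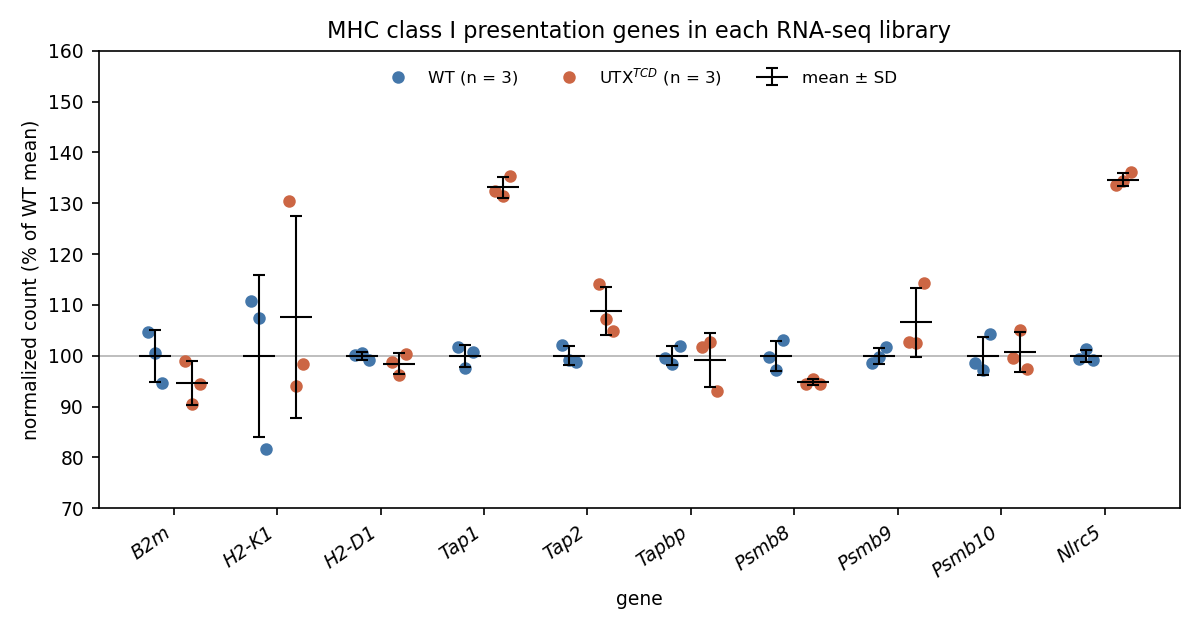
Normalized count of each of the 10 genes in each RNA-seq library, as a percentage of that gene's WT mean; points are libraries, and the crossed bars give the mean and SD of 3 libraries. The UTXTCD libraries of Tap1 and Nlrc5 lie between 132% and 136% of the WT mean, while those of H2-K1 spread from 94.1% to 131%.

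The heavy chains and the light chain form the class I molecule. B2m (chr2:122147687-122153082), the beta-2-microglobulin light chain shared by all class I molecules, had normalized counts of 338725, 325586 and 306203 in the WT libraries and 320277, 292906 and 305404 in the UTXTCD libraries. The groups overlapped only in that UTXTCD replicate 1 lay above WT replicate 3. The difference did not pass the test (log2 fold change -0.08, SE 0.06, adjusted p = 0.336, 95% interval -0.22 to 0.06). H2-K1 (chr17:33996012-34000619), a classical heavy chain, had 87040.2, 84421 and 64141 in the WT libraries and 102491, 73873 and 77204 in the UTXTCD libraries. Both groups spread widely here, the highest UTXTCD library being replicate 1 and the lowest WT library replicate 3 (log2 fold change 0.10, SE 0.14, adjusted p = 0.597, 95% interval -0.22 to 0.42). H2-D1 (chr17:35263094-35267497), the other classical heavy chain, had 123606, 124010.1 and 122255 in the WT libraries and 121712, 118674 and 123829.6 in the UTXTCD libraries. Its libraries were close together and the groups overlapped (log2 fold change -0.02, SE 0.04, adjusted p = 0.708), with a 95% interval of -0.12 to 0.07. The signs of the small H2-K1 and H2-D1 differences changed in some of the alternatives tried.

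TAP1 and TAP2 pair to form the peptide transporter of the endoplasmic reticulum. Tap1 (chr17:34187556-34197225) had normalized counts of 34303, 32869 and 33934 in the WT libraries and 44648, 44319 and 45621 in the UTXTCD libraries. Each UTXTCD library exceeded each WT library, and the group mean was 33.1% higher (log2 fold change 0.41, SE 0.04, adjusted p = 5.80e-05, 95% interval 0.32 to 0.50). Tap2 (chr17:34204479-34216321) had 18757, 18203 and 18119 in the WT libraries and 20959.8, 19707 and 19268 in the UTXTCD libraries. Its UTXTCD libraries were also all above the WT libraries, but by less, and the difference did not pass the threshold (log2 fold change 0.12, SE 0.04, adjusted p = 0.0564). Without UTXTCD replicate 3 the Tap2 log2 fold change was 0.15 and its adjusted p 0.0340; with the libraries scaled to the same sum of reads these were 0.18 and 0.0114. Over all 15 alternatives the adjusted p of Tap2 ran from 0.0114 to 0.201. Tapbp (chr17:33919478-33929290), which holds empty class I molecules at the transporter, had 56854, 56164 and 58222 in the WT libraries and 58014, 58679.8 and 53148 in the UTXTCD libraries. The lowest of the 6 values was UTXTCD replicate 3 and the groups overlapped (log2 fold change -0.01, SE 0.05, adjusted p = 0.853).

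The immunoproteasome is a proteasome in which PSMB8, PSMB9 and PSMB10 replace the constitutive catalytic subunits PSMB5, PSMB6 and PSMB7. Psmb8 (chr17:34198195-34201454) had normalized counts of 35579, 34604 and 36705 in the WT libraries and 33682, 34001 and 33645 in the UTXTCD libraries. All 3 UTXTCD values lay under the lowest WT value, a difference that did not pass the test (log2 fold change -0.08, SE 0.04, adjusted p = 0.154). Psmb9 (chr17:34182030-34187330) had 9909, 10024 and 10219 in the WT libraries and 10331, 10307 and 11495 in the UTXTCD libraries. The UTXTCD libraries were above the WT libraries, replicate 3 standing apart from the other two, and the difference did not pass either (log2 fold change 0.09, SE 0.05, adjusted p = 0.199). With the libraries scaled to the same sum, Psmb9 had an adjusted p of 0.0487, and the range over its 15 alternatives was 0.0487 to 0.491. Psmb10 (chr8:105935728-105938392) had 10239.7, 10114 and 10832 in the WT libraries and 10356, 10918 and 10129 in the UTXTCD libraries, with overlapping groups (log2 fold change 0.01, SE 0.05, adjusted p = 0.885).

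Of the 3 constitutive counterparts, 2 were lower in UTXTCD at an adjusted p under 0.05, beside 20.5% of all tested genes. All 3 had every UTXTCD library below every WT library, as did 26.1% of all tested genes. Psmb5 had 1827, 1824 and 1925 in the WT libraries and 1586, 1606 and 1726 in the UTXTCD libraries. Its UTXTCD values were all below its WT values, and its adjusted p was just above the threshold (log2 fold change -0.18, SE 0.07, adjusted p = 0.0543), from 0.0292 (without UTXTCD replicate 3) to 0.176 over its alternatives. Psmb6 had 8593, 8168 and 8725 in the WT libraries and 7099, 6953 and 6736 in the UTXTCD libraries. Psmb7 had 9859, 9448 and 10019.5 in the WT libraries and 7448, 7863 and 7767 in the UTXTCD libraries. Both fell in UTXTCD with no overlap between the groups (Psmb6, log2 fold change -0.29, SE 0.05, adjusted p = 0.00105; Psmb7, log2 fold change -0.35, SE 0.04, adjusted p = 3.62e-04).

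A ratio of 2 genes within a library does not depend on how the libraries were scaled. The log2 ratio of Psmb9 to Psmb6 was 0.21, 0.30 and 0.23 in WT and 0.54, 0.57 and 0.77 in UTXTCD, a difference of 0.38. For Psmb10 to Psmb7 it was 0.05, 0.10 and 0.11 in WT and 0.48, 0.47 and 0.38 in UTXTCD, a difference of 0.36. For Psmb8 to Psmb5 it was 4.28, 4.24 and 4.25 in WT and 4.41, 4.40 and 4.28 in UTXTCD, a difference of 0.10. In each of the 3 pairs all UTXTCD libraries were above all WT libraries, barely so for Psmb8 to Psmb5, where UTXTCD replicate 3 and WT replicate 1 are equal at 2 decimals and the UTXTCD SD is 0.07, and the 2-sided exact permutation p was 0.10, also after adjustment over the 3 pairs. That is the smallest p that 3 libraries against 3 can give, so none of these ratios could have passed 0.05. Among single genes the groups did not overlap for 51.9% of those tested, and no such share was taken for ratios. The ratio rests on the constitutive subunit for Psmb10 and Psmb7, where the log2 fold changes were 0.01 for Psmb10 and -0.35 for Psmb7. For Psmb8 and Psmb5 both values were negative, -0.08 for Psmb8 and -0.18 for Psmb5, so this ratio also rests on the constitutive subunit. For Psmb9 and Psmb6 the larger part was the fall of Psmb6 (-0.29), while Psmb9 (0.09) did not pass the test.

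Nlrc5 encodes the transactivator that works at class I promoters. Its normalized counts were 62791, 64027 and 62587 in the WT libraries and 84287, 84819 and 85913 in the UTXTCD libraries. The lowest UTXTCD library stood well above the highest WT library, and the group mean was 34.6% higher (log2 fold change 0.43, SE 0.04, adjusted p = 4.51e-05, 95% interval 0.34 to 0.52). Of all tested genes, 27.3% had a log2 fold change of at least that size in either direction, and by p Nlrc5 ranked 514 and Tap1 570 among 14459. In all 15 alternatives both genes were higher in UTXTCD at an adjusted p under 0.05, from 6.41e-23 to 5.26e-04 for Nlrc5 and from 3.11e-18 to 5.25e-04 for Tap1. A change in the share of a cell type and a change of RNA per cell cannot be told apart in bulk libraries such as these, for Nlrc5 and for every gene here.

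Levels of different genes can be compared only per length, here as normalized count per kb of the longest curated RefSeq transcript. In WT, B2m came first at 377045 ± 19068 per kb (SD, n = 3), followed by H2-D1 at 71020 ± 529 and H2-K1 at 47712 ± 7614. Psmb8 (29133 ± 859.7), Tapbp (20756 ± 381), Psmb9 (12470 ± 195), Tap1 (11424 ± 252), Nlrc5 (9091 ± 112), Psmb10 (8185 ± 302) and Tap2 (7373 ± 139) came after them. No neighbours in that WT order overlapped in their libraries. In UTXTCD the order was the same except that Tap1, at 15208 ± 229 per kb, stood above Psmb9, at 13289 ± 843, and the libraries of Psmb10 (8242 ± 320) and Tap2 (8023 ± 353) overlapped. Nlrc5 reached 12240 ± 119 per kb and stayed below Psmb9 in UTXTCD. The transporter subunits were unequal on this scale in both groups, with Tap1 above Tap2 in every library. NOD mice carry another MHC haplotype than the reference genome, and its part in the order of H2-D1 and H2-K1 was not tested.

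Several class I heavy chain genes beyond H2-K1 and H2-D1 had larger fold changes than any member. Of 20 such genes, 16 could be tested (H2-M5, H2-M9, H2-M10.1 and H2-M11 had too few counts), and 8 were higher in UTXTCD at an adjusted p under 0.05, 6 of them past the fold limit; of all tested genes 20.2% were higher and 10.5% also past the limit. Over the 15 alternatives 6 to 10 of the list were higher. None was lower by limma, edgeR or DESeq2, nor at an unadjusted limma p under 0.05, and edgeR and DESeq2 gave 7 and 8 higher at an adjusted p under 0.05, 5 of them past the fold limit by either tool. Their median log2 fold change was 0.44, beside -0.00018 over all tested genes. The summed normalized counts of the list were 109818, 112407 and 105350.4 in the WT libraries and 162944, 155064 and 160129 in the UTXTCD libraries, with no overlap.

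H2-T24, a nonclassical heavy chain gene, had 14608, 11537 and 13116 in the WT libraries and 28853, 25787 and 23127 in the UTXTCD libraries (log2 fold change 0.99, SE 0.10, adjusted p = 7.27e-05). H2-Q6, in the Q region, had 4372, 5645 and 3503 in the WT libraries and 8729.9, 7102 and 9284 in the UTXTCD libraries (log2 fold change 0.91, SE 0.16, adjusted p = 0.00191). The libraries of either gene varied within a genotype, yet the groups stayed apart. H2-T22 (log2 fold change 0.77, SE 0.07, adjusted p = 6.67e-05) and H2-T10 (log2 fold change 0.72, SE 0.04, adjusted p = 3.96e-06), which encode ligands of some gamma delta T cell receptors, were higher in every UTXTCD library as well. H2-T23, the heavy chain of Qa-1, which presents leader peptides to NKG2A receptors, had 4323, 4369.7 and 4407 in the WT libraries and 5012, 4874 and 4945 in the UTXTCD libraries, a small rise (log2 fold change 0.18, SE 0.04, adjusted p = 0.0114) whose adjusted p was 0.0543 without WT replicate 1 and ran from 0.00286 to 0.0543 over its alternatives. H2-Q4 was the most abundant of the list and is named because its level was seen; it had 38405, 39239 and 34813 in the WT libraries and 54300.3, 51007 and 52464 in the UTXTCD libraries (log2 fold change 0.49, SE 0.05, adjusted p = 1.36e-04). These genes have near-identical stretches of sequence with each other and with H2-K1 and H2-D1, NOD mice carry another MHC haplotype than the C57BL/6 reference, and the gene annotation and strand setting used for counting are not stated. How reads were shared out among the copies was not tested.

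**Figure D2:**
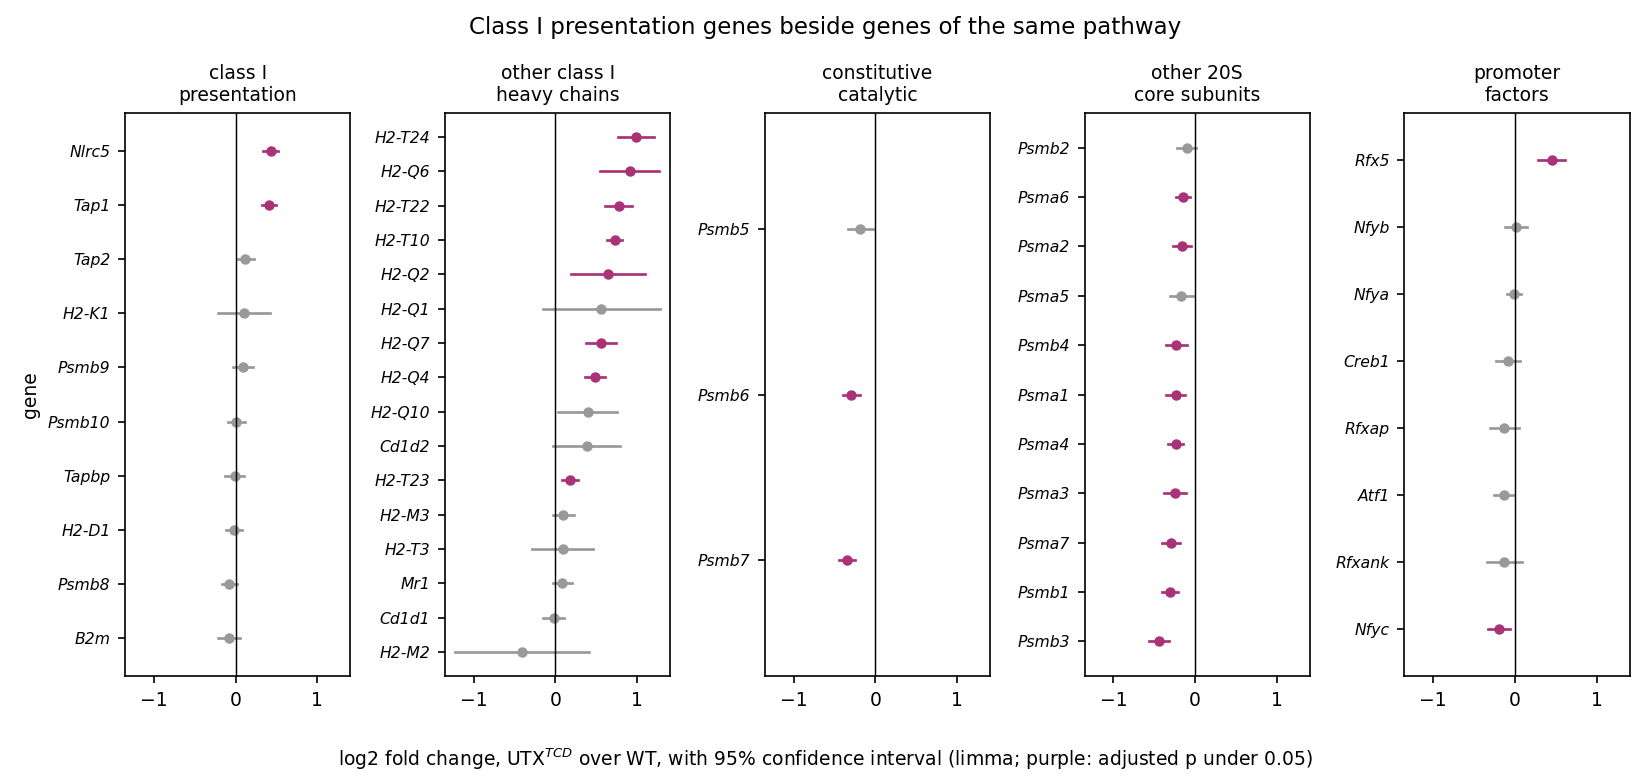
Log2 fold change (UTXTCD over WT) of every tested gene in 5 lists, with its 95% confidence interval from limma on 3 libraries per genotype; purple marks an adjusted p under 0.05. Nlrc5 and Tap1, at 0.43 and 0.41, stand to the right of the other 8 presentation genes, and the 20S core subunits all lie to the left of 0.

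With the authors' scaling, the other genes of the peptide supply that passed the limma test were lower in UTXTCD. Of the 11 remaining subunits of the 20S proteasome core, 9 were lower and none higher at an adjusted p under 0.05, with a median log2 fold change of -0.24 and UTXTCD below WT in every library for 10 of them. Of all tested genes, 20.5% were lower at that threshold and 26.1% had every UTXTCD library below every WT library. By unadjusted p 10 were lower and none higher; edgeR and DESeq2 gave 9 and 10 lower, and scaling the libraries to the same sum left 6 lower, with none higher by any of these; 6 was also the fewest over the 15 alternatives. Among the 3 constitutive catalytic subunits the median was -0.29. Of 9 proteasome activators and assembly factors, 4 were lower and none higher by limma (median -0.14), and 2 to 4 were lower over the 15 alternatives; the adjusted p of Psme1 was above 0.05 in 7 of them. Scaling to the same sum gave 1 higher and 3 lower. Of 10 listed genes for loading and trimming in the endoplasmic reticulum, all but Hm13 were in the RNA-seq table. Of those 9, 5 were lower and none higher by limma, with a median of -0.14, and 4 or 5 were lower over the alternatives. Scaling to the same sum of reads, which moved the median of all tested genes to 0.06, gave 1 higher and 4 lower in that list.

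Class I promoters carry elements bound by the RFX complex, by CREB and ATF proteins and by NF-Y, which NLRC5 needs in order to act there. Of 8 genes for these factors, 1 was higher and 1 lower at an adjusted p under 0.05 (median -0.11), beside 20.2% and 20.5% of all tested genes. The lower one, Nfyc, rose above 0.05 in 6 of its 15 alternatives, among them 0.0705 with scaling to the same sum and 0.0972 without WT replicate 3. The one that was higher was Rfx5, the DNA-binding subunit of the RFX complex, with 3750.4, 3982 and 3326 in the WT libraries and 5309, 4821 and 4974 in the UTXTCD libraries. Its UTXTCD libraries were all above its WT libraries (log2 fold change 0.45, SE 0.07, adjusted p = 0.00122).

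Of 12 interferon signalling genes, 4 were higher and 3 lower at an adjusted p under 0.05, beside 20.2% and 20.5% of all tested genes, with a median log2 fold change of 0.04. Stat2, part of the factor that type I interferon turns on, had 17119, 16094 and 17406 in the WT libraries and 33934, 34072 and 27645 in the UTXTCD libraries. All UTXTCD libraries were well above WT, replicate 3 less than the others (log2 fold change 0.91, SE 0.08, adjusted p = 3.53e-05). The chains of the interferon gamma receptor were lower: Ifngr1 had 18521, 21610.4 and 19169 in the WT libraries and 9416, 9684 and 11133 in the UTXTCD libraries (log2 fold change -0.97, SE 0.08, adjusted p = 2.14e-05). Ifngr2, the other chain, was also lower in every UTXTCD library (log2 fold change -0.53, SE 0.06, adjusted p = 2.32e-04). Irf1, a factor that acts on many class I genes, had 39473, 41049 and 41648 in the WT libraries and 38849, 39773 and 39924 in the UTXTCD libraries, and its groups overlapped (log2 fold change -0.04, SE 0.04, adjusted p = 0.427).

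MHC class II genes share promoter elements with class I genes, and Ciita encodes the class II transactivator, a relative of NLRC5. Ciita counts were low, at 116, 109 and 76.3 in the WT libraries and 155, 106 and 121 in the UTXTCD libraries. The groups overlapped and the difference did not pass (log2 fold change 0.35, SE 0.23, adjusted p = 0.264). Of 10 class II pathway genes, 1 was higher and 2 were lower at an adjusted p under 0.05 (0 to 2 and 1 to 2 over the alternatives), beside 20.2% and 20.5% of all tested genes, with a median log2 fold change of 0.36 among mostly low counts. H2-Ab1, a class II beta chain, had only 29.7, 28.6 and 13.0 in the WT libraries and 67.5, 52.0 and 39.1 in the UTXTCD libraries (log2 fold change 1.17, SE 0.38, adjusted p = 0.0351). Its adjusted p rose above 0.05 in several alternatives, to 0.108 without UTXTCD replicate 1, 0.0985 without WT replicate 3 and 0.0890 without UTXTCD replicate 2. Of the 2 lower genes, H2-DMa rose above 0.05 in 6 of 15 alternatives, to 0.159 without WT replicate 1. H2-Ob, which modulates class II loading, had 1936, 1917 and 1702 in the WT libraries and 1365, 1149 and 1337 in the UTXTCD libraries, lower in every UTXTCD library (log2 fold change -0.53, SE 0.09, adjusted p = 0.00161).

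Markers of other cells that a lymph node sort could carry over also differed. Of all tested genes, 10.5% were called higher and 7.05% called lower, the shares to set beside the counts of calls below. For B cells, 4 of 6 markers could be tested, of which 1 was called higher and 1 lower, and the markers' summed normalized counts were 2957, 2442 and 2805 in the WT libraries and 1226, 1083 and 1008 in the UTXTCD libraries. Cd79b, the most abundant, fell (log2 fold change -1.98, SE 0.15, adjusted p = 1.47e-05). Ms4a1 rose at low counts of 5.94, 19.7 and 8.39 in the WT libraries and 20.2, 29.6 and 73.0 in the UTXTCD libraries (log2 fold change 1.72, SE 0.56, adjusted p = 0.0367), an adjusted p that reached 0.119 without WT replicate 1, 0.112 without UTXTCD replicate 3, 0.0894 without WT replicate 3 and 0.0682 without UTXTCD replicate 2. The defining factors Pax5 and Ebf1 had counts of 0 to 11.1 over the 6 libraries.

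For myeloid and dendritic cells, 6 of 9 markers could be tested and 3 were called lower, with none called higher by limma, edgeR or DESeq2. Of all tested genes, 7.05% were called lower and 10.5% higher by limma. At an unadjusted limma p under 0.05, 1 marker was higher and 3 were lower. The sum of this list was 803, 761 and 769 in the WT libraries and 349, 396 and 386 in the UTXTCD libraries. The drop lay mostly in Itgam, with 453, 434 and 459.9 in the WT libraries and 72.0, 91.3 and 64.1 in the UTXTCD libraries. Itgax (CD11c) and Csf1r were called lower too, at 0 to 55.7 and 4.50 to 27.7 counts. Lyz2 and Xcr1 overlapped between the groups (log2 fold change 0.07, SE 0.33, adjusted p = 0.877, and log2 fold change 0.11, SE 0.15, adjusted p = 0.608). Zbtb46 did not pass (log2 fold change 0.90, SE 0.33, adjusted p = 0.0541), though its adjusted p was 0.0448 with scaling to the same sum and 0.0264 without WT replicate 1. Adgre1, Flt3 and Siglech were too low to test. Of the 3 CD4 T cell markers, Cd4 and Zbtb7b were called lower and none higher, by unadjusted p and edgeR as well, and DESeq2 gave 1 lower. The third, Foxp3, overlapped between the groups and did not pass (log2 fold change 0.05, SE 0.15, adjusted p = 0.809). The sum of the 3 markers, led by Foxp3, was 475, 373 and 442 in the WT libraries and 373, 349.9 and 344 in the UTXTCD libraries. The Cd4 call was lost without WT replicate 1, 2 or 3 (adjusted p = 0.0989, 0.101 and 0.0636) and without UTXTCD replicate 1 or 3 (0.0619 and 0.0796). It was also lost with no filter on low counts (0.0673), with scaling to the same sum (0.0543) and by DESeq2 (0.0573). In 6 of its 14 alternatives the adjusted p of Cd4 was under 0.05.

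For NK cells, 2 of 3 markers could be tested, and Eomes, which CD8 T cells also express, was called higher (log2 fold change 0.62, SE 0.12, adjusted p = 0.00388), as were 10.5% of all tested genes. No marker was lower by limma, its unadjusted p, edgeR or DESeq2. The list's sum, nearly all Eomes, was 13406, 15369.8 and 13193 in the WT libraries and 19113, 19092 and 26857 in the UTXTCD libraries, while the receptor gene Klrb1c went the other way, with 28.7, 55.3 and 16.8 in the WT libraries and 13.5, 5.61 and 25.8 in the UTXTCD libraries, and its groups overlapped (log2 fold change -1.18, SE 0.59, adjusted p = 0.14). Ncr1, the defining receptor gene, was at 0 to 6.93. The part that other cells may have in the values of the presentation genes was not tested.

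The ATAC-seq list holds 23932 regions, nearly all 401 bases wide, whose accessibility differed between the genotypes at the authors' FDR of 0.05. It gives the authors' group means (log2 concentration, a log2 mean normalized read count) with no value per library, so no spread or test can be given here. Peaks of the members numbered 6, on 4 genes; 4 were higher and 2 lower in UTXTCD, while 68.8% of all listed peaks were higher. A difference of the means over 0.5 was found for 3 of the 6, against 73.1% of listed peaks. None of the 6 was annotated as a promoter. No listed peak carried the name of B2m, H2-K1, Tap1, Psmb8, Psmb9 or Psmb10; the list leaves out regions that did not pass the FDR, so this says nothing on how accessible those genes were.

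Nlrc5 had 3 of the 6 peaks, all higher in UTXTCD. The largest difference was at chr8:94458675-94459075, annotated as intergenic and 13888 bases upstream of the curated start, where the group mean went from 7.31 in WT to 8.67 in UTXTCD, a difference of 1.35. At chr8:94483625-94484025, in intron 9 of 48 and 11062 bases past that start, the means were 6.55 and 7.37 (difference 0.82). At chr8:94454093-94454493, 18470 bases upstream, they were 9.25 and 9.84 (difference 0.59). The RefSeq gene record of Nlrc5 (chr8:94434335-94527272, plus strand) begins earlier than the curated transcript, and both upstream peaks lie inside it. Its 92938 bases hold 5 listed peaks, each with the higher mean in UTXTCD; the other two carry the names of 9330175E14Rik (difference 0.57) and Mir7072 (difference 0.39, in intron 18 of Nlrc5).

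**Figure D3:**
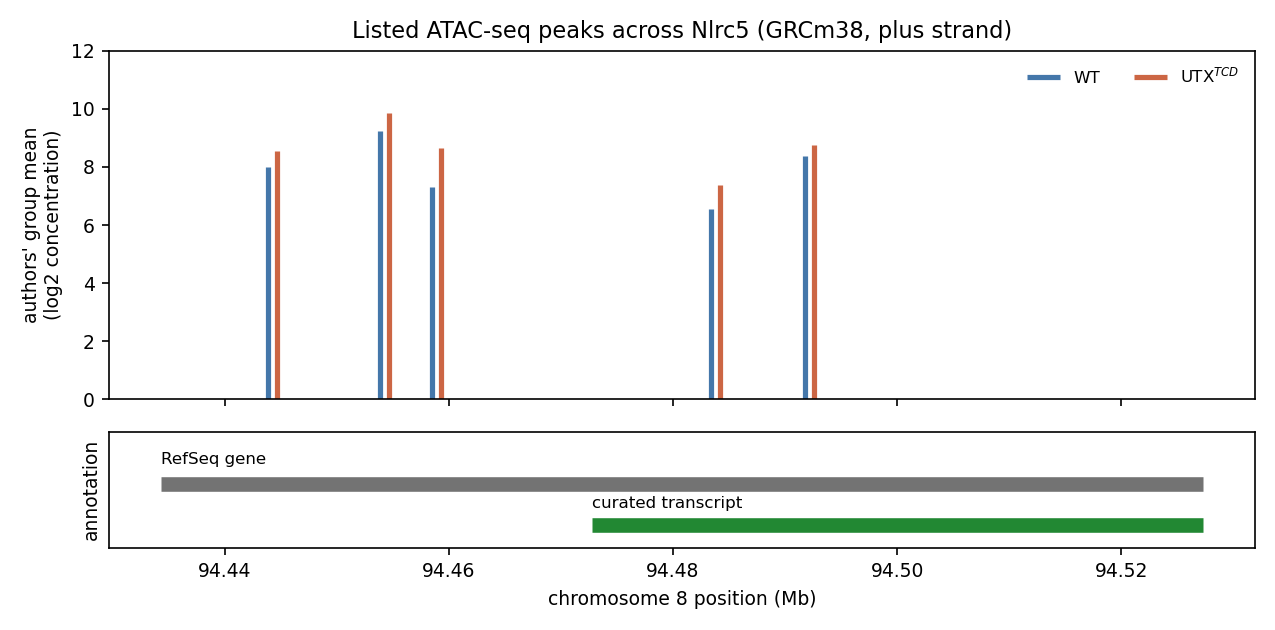
Listed ATAC-seq peaks across Nlrc5, drawn to position on chromosome 8; bars are the authors' group means (log2 concentration) of 3 libraries per genotype, drawn side by side and wider than the peaks, with no spread in the list. All 5 peaks have the higher mean in UTXTCD, by 0.39 to 1.35, and 3 of them lie before the start of the curated transcript.

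The other members' peaks differed less. Tap2 had 1, at chr17:34211739-34212139 in exon 6 of 12, with means of 8.49 and 8.87 (difference 0.37). It is the sole listed peak in the 34292 bases from Psmb9 to Tap2, a block that also holds Tap1 and Psmb8. Tapbp had 1 at chr17:33919405-33919805, over its own start but annotated to the transcription end of its neighbour, and its mean was lower in UTXTCD (11.13 and 10.87, difference -0.26). The H2-D1 peak, at chr17:35259055-35259455 and 3839 bases upstream, was also lower (10.49 and 10.11, difference -0.38). RNA of Tapbp and H2-D1 overlapped between the groups.

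Among the other class I heavy chains, 8 genes had 16 listed peaks, 13 of them higher in UTXTCD, beside 68.8% of all listed peaks. The median difference of the 16 was 0.43. H2-T24, whose RNA was higher, had a promoter peak at chr17:36020562-36020962 with means of 10.53 and 10.77 (difference 0.24), a higher one at chr17:36023619-36024019 (9.08 and 9.38, difference 0.31) and a lower one in intron 3 at chr17:36015029-36015429 (10.21 and 9.78, difference -0.44). H2-T23 had 1 peak, lower in UTXTCD, at chr17:36034861-36035261 (6.56 and 5.54, difference -1.02). In the interferon list, 7 genes had 33 peaks, 21 of them higher, beside 68.8% of all listed peaks. All 5 listed Ifngr1 peaks were lower, by -1.23 to -0.24, beside 7466 of all 23932 listed peaks. The smallest Ifngr1 difference was at the promoter peak, chr10:19591651-19592051 (12.27 and 12.03). The 1 listed Ifngr2 peak was higher (difference 0.32), although its RNA was lower, and the 3 listed Irf1 peaks, 16103 to 32792 bases from its start, were lower (differences -0.94, -1.05 and -0.58), although its RNA overlapped. The 1 peak named for Rfx5, at chr3:94943709-94944109, lies 10199 bases upstream of its start, in an exon of a neighbouring gene, with means of 5.80 and 6.41 (difference 0.61).

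Promoter sequences (250 bases before to 50 after a gene's start, RefSeq, GRCm38.p6) were at hand for 8 of the 10 members; Tap2 and Nlrc5 have no entry. Both strands were searched for 4 motifs fixed by their letters: the interferon response core GAAANNGAA, the GAS element TTCNNNGAA, the Y box ATTGG and the X2 half-site TGACG. Of 32851 promoter entries, 8.56%, 8.30%, 37.4% and 20.8% held them in that order. The interferon response core was found in B2m and the GAS element in Psmb8. The Y box was found in 6 members (B2m, H2-K1, H2-D1, Tap1, Psmb9 and Tapbp) and the X2 half-site in 5 (the same without Tapbp). A match describes the letters and does not show that a factor binds.

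In B2m, H2-K1 and H2-D1, 3 genes of the class I molecule itself, the X2 half-site is followed by a Y box with 20 bases between them, an arrangement that 0.0944% of all promoter entries have (31 of 32851). It was searched for after these sequences had been seen. The windows are shown because they put the shared element side by side for genes whose RNA overlapped between the genotypes. Capitals mark the half-site and the Y box, each read 5′ to 3′ on the gene's strand: B2m at chr2:122147609-122147638 (plus), H2-K1 at chr17:34000359-34000388 (minus) and H2-D1 at chr17:35262993-35263022 (plus). The half-site begins 78 bases before the gene start in the B2m entry, 101 before that of H2-D1, and 41 or 55 before those in the 2 H2-K1 entries. The H2-K1 gene record reaches further upstream, to 34000619, so the H2-K1 window lies inside it.
B2m: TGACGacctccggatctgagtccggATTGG
H2-K1: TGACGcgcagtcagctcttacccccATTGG
H2-D1: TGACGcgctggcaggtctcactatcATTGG

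Tap1 and Psmb9 lie head to head and share a promoter: their entries, on opposite strands, overlap by 275 bases. Tap1 passed the test and Psmb9 did not, with log2 fold changes of 0.41 and 0.09; the difference between them was not tested. The bases between the 2 gene records (chr17:34187331-34187555, plus strand) are shown with the Y box, here as the reverse complement, and the X2 half-site in capitals.
Tap1: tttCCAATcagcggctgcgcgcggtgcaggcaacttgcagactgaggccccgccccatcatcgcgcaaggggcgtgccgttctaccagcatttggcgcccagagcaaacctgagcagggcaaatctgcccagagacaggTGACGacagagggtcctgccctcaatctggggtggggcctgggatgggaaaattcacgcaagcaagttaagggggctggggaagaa

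The middle 300 bases of 23908 listed peaks were searched in the same way, and 10.6% held the interferon response core, 8.82% the GAS element, 27.1% the Y box and 16.5% the X2 half-site. The Nlrc5 peak with the largest difference is shown for that reason, from chr8:94458725-94459024 on the plus strand of the reference genome; it holds none of the 4 motifs and so has no capitals. The stronger upstream peak, from chr8:94454143-94454442, holds 1 Y box and 1 X2 half-site, in capitals. The sequences are those of the C57BL/6 reference, and the NOD sequence may differ.
Nlrc5 peak 13888 bases upstream: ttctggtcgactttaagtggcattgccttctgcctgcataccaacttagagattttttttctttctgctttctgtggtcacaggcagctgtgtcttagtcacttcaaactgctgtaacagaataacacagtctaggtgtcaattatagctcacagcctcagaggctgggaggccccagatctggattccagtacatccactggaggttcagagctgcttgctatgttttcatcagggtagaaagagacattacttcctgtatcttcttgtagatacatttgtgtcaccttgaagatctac
Nlrc5 peak 18470 bases upstream: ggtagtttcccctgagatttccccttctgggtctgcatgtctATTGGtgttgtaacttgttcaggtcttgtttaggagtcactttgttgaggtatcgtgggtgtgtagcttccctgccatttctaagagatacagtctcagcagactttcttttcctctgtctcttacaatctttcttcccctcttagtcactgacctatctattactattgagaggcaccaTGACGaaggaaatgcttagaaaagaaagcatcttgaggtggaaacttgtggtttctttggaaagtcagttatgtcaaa

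The Tapbp peak holds 2 overlapping copies of the interferon response core, the only match to that motif among the members' 6 peak middles. They are shown in capitals within 30 bases of the plus strand (chr17:33919628-33919657), since Tapbp is the member whose own start lies under a peak with a lower mean in UTXTCD.
Tapbp: ttagaagGAAAATGAAAGTGAAaggggaag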

How the data were processed

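Values come from 12 libraries, 3 per genotype for RNA-seq and for ATAC-seq. For RNA-seq, per the labels and methods, reads were aligned with HISAT2 2.2.1 to mm10, counted per gene with featureCounts and divided by DESeq2 size factors, so the deposited signal is a normalized count. For ATAC-seq the authors give 1 log2 value per peak and genotype, the log2 mean normalized read count from DiffBind. The deposited p-value of the ATAC-seq list, its FDR column, served only to learn how the list was filtered; the authors' fold changes and p-values were not used.

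Whole reads were recovered from the step of each library's values (100% of values whole within 0.1), and every pair of libraries of a genotype was checked to be distinct. The comparison used limma 3.58.1 in R 4.3.3 (lmFit, eBayes with trend) on log2(normalized count + 1) for genes with a mean of at least 10, with Benjamini-Hochberg adjustment over all genes tested; a gene was called at an adjusted p under 0.05 and a log2 fold change over 0.5 in either direction. That gave 2538 calls, and edgeR 4.0.16 and DESeq2 1.42.0 on the recovered reads gave 2541 and 2422. The code was tested on simulated data. Ratios of 2 genes were compared by 2-sided exact permutation tests over the 6 libraries.

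Alternatives were other pseudocounts, count filters, scalings and fold limits, each library left out in turn, and the replicate number as a block. The fold limit of 0.4 was chosen after seeing the data. Named are the 10 members, Kdm6a, up to 4 called genes per list and direction with the largest fold change, and Psmb5, Psmb6, Psmb7, Rfx5, Irf1, Ciita and H2-T23; Psme1, Nfyc and H2-DMa were added after their values were seen, and a few genes that this rule or the marker lists take are not reported here. Cell type markers and genes of the sort gate stand as a check of the sample. The members and lists were chosen with earlier results of these data known. Positions are from RefSeq on GRCm38.p6.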

Additional observations from a re-analysis of the deposited data

How the results depend on the processing

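Over 115 genes and their alternatives, 1610 results kept their direction and their side of the adjusted p of 0.05 or were not past it before and after, 70 lost the threshold and 28 gained it; none past the threshold changed sign, while the small differences of H2-K1, H2-D1, Tapbp and Psmb10 did under some alternatives. Tap1 and Nlrc5 kept theirs in all 15 alternatives. With no limit on the fold change, 5887 genes and 2 members were called, the members being higher; with the limit of 0.4, chosen after seeing the data, 3090 genes and again 2 members were called, since both lie between 0.4 and 0.5. Peaks of members went from 6 to 3 with a difference over 0.5 and to 1 within 1 kb of the start site, by the construction of those limits.

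Without 1 library at a time, 2162 to 2572 genes were called. With the replicate number as a block (replicate block), 2474 genes were called, against 2538; the same-numbered libraries of the genotypes correlated at r = 0.31, -0.20 and 0.09 across genes, which are not independent replicates, and the labels do not say that they are pairs. Libraries scaled to the same sum moved the median log2 fold change of all tested genes to 0.06 and the share of called genes that were higher from 59.8% to 67.0%, and put Psmb9 and Tap2 past the threshold; the cause was not tested. With 3 libraries per genotype, small differences such as those of Psmb8 and Tap2 were not resolved, counted reads ranged from 61512402 in UTXTCD replicate 1 to 193568919 in WT replicate 3, and the ATAC-seq list used here holds no value per library to set a spread.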
